A study of Mus musculus with 10 samples.

Results

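Flavin-containing monooxygenases are represented here by 4 mouse genes, Fmo1, Fmo2, Fmo4 and Fmo5, taken by gene name from a liver expression table of 19414 genes. All 4 were found, and all 4 passed the filter used for testing, a mean of at least 1 CPM (counts per 1e+06 reads on genes) over the mice. The livers came from 10 female HET3 mice, an outbred-like stock in which every animal differs genetically, with an age of 25 months on the labels. Of these mice, 5 were fed the Longevity diet and 5 a standard diet, each for 5 months. The labels do not settle whether 25 months was the age when feeding began or ended, and they give no cage, batch or composition of either diet. Mice are named by their titles, LD for the Longevity diet and SD for the standard diet, and SD after a ± sign is the standard deviation.

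These enzymes sit in the membrane of the endoplasmic reticulum, hold a tightly bound FAD, and use NADPH and oxygen to add an oxygen atom to nitrogen or sulfur atoms of drugs, dietary amines and thiols. FMO1 has a broad range of substrates and can oxidise hypotaurine to taurine. FMO2 is best known as the lung form in many mammals, FMO4 is little characterised, and FMO5 differs from the others in carrying out mainly Baeyer-Villiger oxidations of ketones. The comparison asks whether the hepatic mRNA of these enzymes differed between the Longevity diet and the standard diet.

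The coding sequences share the glycine-rich stretch near the start of the protein that binds FAD. It is shown because all 4 genes hold it while its bases already differ enough between them to tell them apart. Each line runs 5′ to 3′ on the coding strand, was read from the longest GENCODE M21 transcript with the full coding sequence, and has the 3 glycine codons of the motif in capitals.
Fmo1: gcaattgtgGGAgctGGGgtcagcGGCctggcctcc
Fmo2: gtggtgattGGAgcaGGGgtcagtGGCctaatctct
Fmo4: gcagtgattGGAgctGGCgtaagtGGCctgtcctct
Fmo5: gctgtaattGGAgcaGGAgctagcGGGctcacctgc
The motif covers codons 9 to 14 in Fmo1, Fmo2 and Fmo4 and codons 10 to 15 in Fmo5. Of the 36 positions shown, 19 held the same base in all 4 genes. Over the whole coding sequence, of 1599 bases in Fmo1, 1608 in Fmo2, 1683 in Fmo4 and 1602 in Fmo5, any pair of genes was identical at between 62.8% (Fmo1 and Fmo5) and 67.2% (Fmo2 and Fmo4) of the aligned bases. No run of 50 bases in the longest such transcript of Fmo1, Fmo2 or Fmo4 occurred in a transcript of another gene. In Fmo5, 25 of 5148 such runs did, and 0 of them lay in another Fmo gene. No other gene of the table overlapped any of the 4 on either strand.

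Sequencing was deep enough that counting error was small for these genes. The estimated depth was 30.0 ± 6.47 M reads (units of 1e+06) per library on the Longevity diet and 42.5 ± 4.35 M on the standard diet (SD, n = 5 each, two-sided exact permutation p = 0.0159). The fewest estimated reads of all, for Fmo4 in one mouse, were about 455, a counting error of 4.69%. The fewest for Fmo5 were about 7362. These errors cover counting only. The most abundant gene took 11% to 16.1% of the reads on the Longevity diet and 6.26% to 11.2% on the standard diet, and CPM are shares of a total that includes it.

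Fmo5 and Fmo1 were the abundant members and Fmo2 and Fmo4 the scarce ones. Per kilobase of transcript, over all 10 mice, Fmo1 stood at 75.2 CPM per kb and Fmo5 between 61.5 and 130 CPM per kb, depending on which of its full-length transcripts, from 2453 to 5197 bases, sets the length. Fmo2 stood between 9.23 and 16.6 CPM per kb and Fmo4 between 8.05 and 12.1 CPM per kb. The order within each pair therefore was not settled by these data, whereas every estimate for the first pair exceeded every estimate for the second. Fmo5 had a higher mean CPM than 97.2% of the 13157 tested genes, Fmo1 than 94.9%, Fmo2 than 76.7% and Fmo4 than 63.5%.

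None of the 4 genes passed the test between the diets. With limma and the Benjamini-Hochberg adjustment over all tested genes at 0.05, 0 of 4 members passed the threshold, beside 249 of 13157 genes or 1.89% of those tested (0.661% higher and 1.23% lower on the Longevity diet). At an unadjusted limma p under 0.05, 1 of 4 members passed, Fmo1, beside 17.5% of all tested genes (11.6% in the lower direction). The values of the diets overlapped in all 4 members, whereas they did not overlap in 5.50% of tested genes. The median log2 difference was 0.19 over the 4 members and -0.11 over all tested genes, and it was positive in 3 members and negative in 1.

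**Figure D1:**
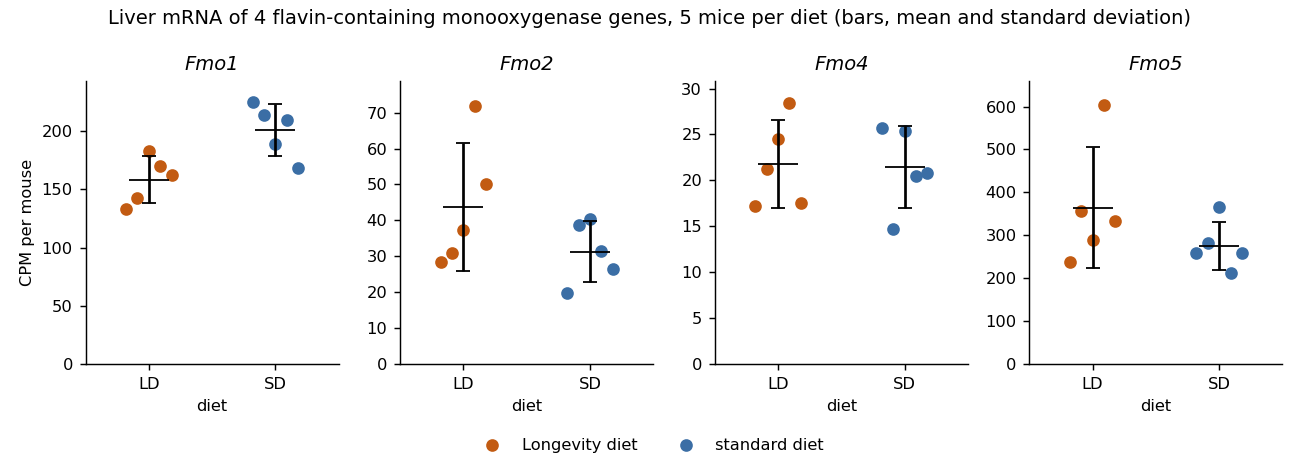
CPM of each gene in each mouse (points), with the mean and standard deviation (bars) for the Longevity diet (left in each panel) and the standard diet (right), 5 mice each. The Longevity diet points of Fmo1 sit low in their panel, between 133 and 183 CPM. The mouse LD_513 is the highest in Fmo2 (71.7 CPM) and Fmo5 (603 CPM).

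Fmo1 (ENSMUSG00000040181.15, chromosome 1 from 162657130 to 162694179 on mm39, minus strand) had the smallest p of the members in the main fit. It stood at 133 CPM in LD_405, 142 in LD_406, 183 in LD_442, 170 in LD_513 and 163 in LD_515, against 225 CPM in SD_403, 214 in SD_500, 189 in SD_501, 209 in SD_502 and 168 in SD_646. All 5 Longevity diet mice lay below the standard diet median of 209 CPM and 3 lay below every standard diet mouse, while SD_646 fell within the Longevity diet range. Fmo1 averaged 158 ± 20.2 CPM on the Longevity diet and 201 ± 22.4 CPM on the standard diet (SD, n = 5 each). The log2 difference was -0.35 (SE 0.16, 95% CI -0.69 to -0.01, limma unadjusted p = 0.0467, adjusted p = 0.276), or 0.786-fold. The exact permutation test on this gene alone gave p = 0.0238, where 0.00794 is the smallest two-sided value that 5 mice against 5 can give. That lead over the other members depended on how libraries were scaled. With median-of-ratios scaling the log2 difference was -0.24 for Fmo1 (limma adjusted p = 0.387). It was 0.54 for Fmo2 (limma adjusted p = 0.300) and 0.46 for Fmo5 (limma adjusted p = 0.311). Over the alternative settings the unadjusted limma p of Fmo1 reached 0.114. Fmo1 was also unusually even between mice of one diet, since its within-diet SD of 0.18 on the log2 scale was undercut by 2.88% of tested genes, whose median was 0.45.

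Fmo5 (ENSMUSG00000028088.15, chromosome 3 from 97536120 to 97562598, plus strand) stood at 237 CPM in LD_405, 358 in LD_406, 289 in LD_442, 603 in LD_513 and 334 in LD_515, against 260 CPM in SD_403, 281 in SD_500, 366 in SD_501, 212 in SD_502 and 258 in SD_646. LD_513 alone lay above every standard diet mouse, and SD_501 lay above the other 4 Longevity diet mice. The means were 364 ± 141 CPM on the Longevity diet and 275 ± 56.4 CPM on the standard diet (SD, n = 5 each). The log2 difference was 0.35 (SE 0.24, 95% CI -0.16 to 0.87, limma adjusted p = 0.468, exact permutation p = 0.206), or 1.28-fold. Without LD_513 the Longevity diet mean was 305 ± 53.3 CPM (SD, n = 4) and the log2 difference 0.15 (limma adjusted p = 0.71). An outlier check by the gap of the farthest mouse over the range of its diet (Dixon) flagged 0 of 8 groups, each gene on each diet. The largest value was 0.67, for Fmo5 on the Longevity diet, against a limit of 0.71.

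Fmo2 (ENSMUSG00000040170.14, chromosome 1 from 162701886 to 162726295, minus strand) stood at 28.4 CPM in LD_405, 30.8 in LD_406, 37.4 in LD_442, 71.7 in LD_513 and 50.1 in LD_515, against 19.8 CPM in SD_403, 38.7 in SD_500, 40.3 in SD_501, 31.3 in SD_502 and 26.5 in SD_646. LD_513 and LD_515 lay above every standard diet mouse, and the other 3 Longevity diet mice lay within the standard diet range. The means were 43.7 ± 17.8 CPM on the Longevity diet and 31.3 ± 8.55 CPM on the standard diet (SD, n = 5 each). The log2 difference was 0.44 (SE 0.28, 95% CI -0.16 to 1.04, limma adjusted p = 0.433, exact permutation p = 0.214), or 1.36-fold. It was 0.24 without LD_513 (limma adjusted p = 0.631). With the leading digit of the mouse number as a covariate it was 0.70 (limma adjusted p = 0.178), a digit whose meaning is not given in the labels. SD_646 alone has its leading digit and so adds nothing to the diet difference in that fit. SD_403, the lowest mouse for Fmo2, is the only standard diet mouse with the digit of LD_405, LD_406 and LD_442.

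Fmo4 (ENSMUSG00000026692.13, chromosome 1 from 162620757 to 162641541, minus strand) stood at 17.2 CPM in LD_405, 21.3 in LD_406, 24.5 in LD_442, 28.4 in LD_513 and 17.5 in LD_515, against 25.7 CPM in SD_403, 14.7 in SD_500, 25.4 in SD_501, 20.5 in SD_502 and 20.8 in SD_646. The diets overlapped almost fully. The means were 21.8 ± 4.75 CPM on the Longevity diet and 21.4 ± 4.46 CPM on the standard diet (SD, n = 5 each), a log2 difference of 0.03 (SE 0.21, 95% CI -0.43 to 0.48, limma adjusted p = 0.964, exact permutation p = 0.952) whose sign turned in 4 of 19 alternative settings. The intervals of the 4 genes leave room for folds, Longevity diet over standard diet, between 0.621 and 0.996 for Fmo1, 0.896 and 2.05 for Fmo2, 0.740 and 1.40 for Fmo4, and 0.894 and 1.82 for Fmo5, before any adjustment for the number of genes tested.

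**Figure D2:**
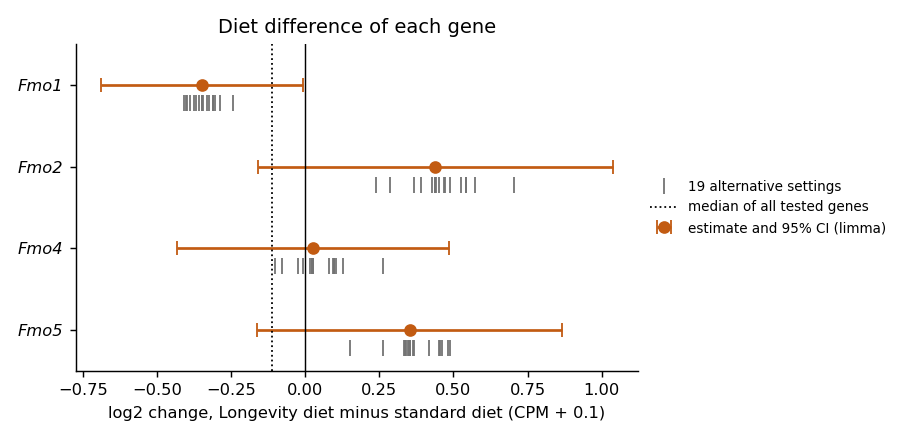
Log2 difference of each gene, Longevity diet minus standard diet, with its 95% confidence interval from limma (orange), the values under 19 alternative settings (grey ticks) and the median of all tested genes at -0.11 (dotted line). The ticks of Fmo1 all lie below 0, from -0.41 to -0.24, those of Fmo2 and Fmo5 all lie above 0, and those of Fmo4 lie on both sides.

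Within a mouse, the balance between members leaned away from Fmo1 on the Longevity diet, but no ratio passed the adjustment over the 6 pairs. Such ratios do not depend on how libraries are scaled to each other. The Fmo2 to Fmo1 ratio of CPM was 0.213 in LD_405, 0.216 in LD_406, 0.205 in LD_442, 0.422 in LD_513 and 0.308 in LD_515, against 0.0880 in SD_403, 0.181 in SD_500, 0.214 in SD_501, 0.150 in SD_502 and 0.158 in SD_646. SD_501 alone overlapped the Longevity diet mice. The log2 ratio differed by 0.79 (SE 0.29, n = 5 each, two-sided exact permutation p = 0.0159, adjusted p = 0.0952). The Fmo5 to Fmo1 ratio was 2.30 ± 0.781 on the Longevity diet and 1.39 ± 0.361 on the standard diet (SD, n = 5 each), with a log2 difference of 0.70 (SE 0.26, exact permutation p = 0.0317, adjusted p = 0.0952), and again SD_501, at 1.94, lay inside the Longevity diet range of 1.58 to 3.55. For each of these ratios 11 of 12 alternatives did not pass (exact permutation with adjusted p = 0.0952 to 0.190), and 1 did, without SD_501, the mouse that overlapped (log2 differences of 0.91 for Fmo2 to Fmo1 and 0.83 for Fmo5 to Fmo1, adjusted p = 0.0476 each). The remaining pairs gave log2 differences of 0.37 for Fmo4 to Fmo1, 0.41 for Fmo2 to Fmo4, 0.33 for Fmo5 to Fmo4 and -0.09 for Fmo5 to Fmo2 (exact permutation adjusted p = 0.206, 0.305, 0.286 and 0.698 in that order), the last of which turned sign without SD_403.

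**Figure D3:**
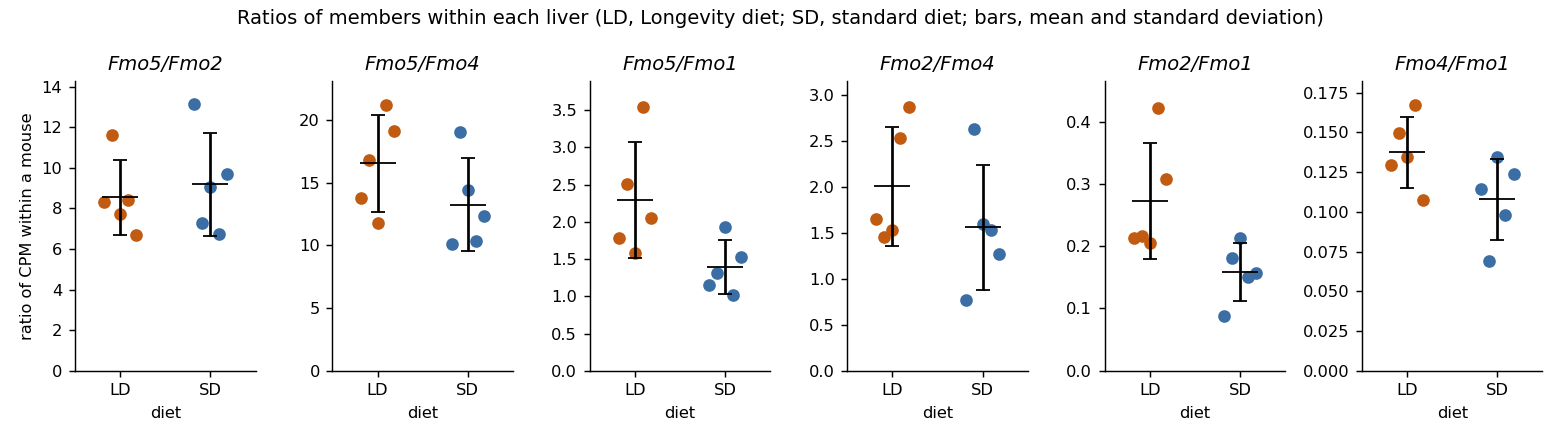
Ratio of the CPM of one gene to that of another within each mouse (points) for the 6 pairs, with the mean and standard deviation, Longevity diet left and standard diet right in each panel. In the Fmo2 to Fmo1 and the Fmo5 to Fmo1 panels, 3 of 5 Longevity diet mice lie above every standard diet mouse.

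Fmo2 and Fmo5, on different chromosomes, had the highest correlation between mice of the 6 pairs, which did not pass the adjustment over them. Over the 10 mice their log2 levels had a Pearson r of 0.78 (permutation p = 0.00908, adjusted over 6 pairs 0.0545) and a Spearman rho of 0.68 (permutation p = 0.0341, adjusted 0.205). LD_513 was the highest mouse for both, and Fmo2 and Fmo5 stood 1.02 and 0.98 above their 10-mouse means on the log2 scale there. Leaving out LD_513 and SD_502, the mice farthest from the median of Fmo5, lowered r to 0.60, and leaving out LD_513 alone lowered it to 0.52, so that much of the relation rests on that mouse. After each diet mean was subtracted r was 0.73. Fmo5 ranked 16th of 13156 genes by its r with Fmo2 over the 10 mice, and 93rd after each diet mean was subtracted. The other 5 pairs had r between -0.21 (Fmo5 and Fmo1) and 0.50 (Fmo5 and Fmo4), with permutation p between 0.147 and 0.740 (adjusted 0.442 to 0.740). Among the neighbours on chromosome 1, r was -0.15 for Fmo2 and Fmo1, 0.16 for Fmo4 and Fmo1 and 0.12 for Fmo2 and Fmo4. Without the 2 mice farthest from the median of the first gene named in each pair these became 0.32, 0.67 and -0.08. The mice left out were SD_500 and LD_513 for Fmo4 and Fmo1, and LD_513 and SD_403 for the pairs with Fmo2. The 0.67 and the 0.60 of Fmo2 and Fmo5 therefore rest on different mice and do not order the pairs. Without LD_513 alone, r was 0.52 for Fmo2 and Fmo5 and 0.23 for Fmo4 and Fmo1. LD_405 was the lowest mouse for Fmo1 and second lowest for Fmo4 and Fmo5.

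**Figure D4:**
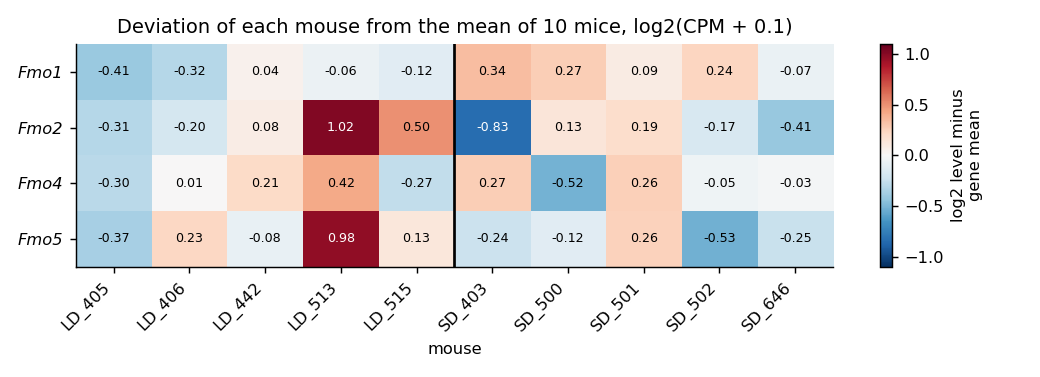
Log2(CPM + 0.1) of each gene in each mouse minus that gene's mean over the 10 mice (colour and printed value), Longevity diet mice left of the line and standard diet mice right of it. LD_513 is high in Fmo2 (1.02), Fmo5 (0.98) and Fmo4 (0.42) but not in Fmo1 (-0.06), and SD_403 is lowest in Fmo2 (-0.83) while highest in Fmo1 (0.34).

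The promoter windows listed for Fmo2 and Fmo5 are shown because this pair had the highest r over the 10 mice. RefSeq (GRCm38.p6, another build than the mm39 of the table) gave a window of 300 bases, 250 before to 50 after the start, for 3 of the 4 members. The Fmo2 window is chr1:162898709-162899008 on the minus strand, from the first of 2 listed starts, and the Fmo5 window is chr3:97628769-97629068 on the plus strand. Capitals mark matches to the motifs searched.
Fmo2: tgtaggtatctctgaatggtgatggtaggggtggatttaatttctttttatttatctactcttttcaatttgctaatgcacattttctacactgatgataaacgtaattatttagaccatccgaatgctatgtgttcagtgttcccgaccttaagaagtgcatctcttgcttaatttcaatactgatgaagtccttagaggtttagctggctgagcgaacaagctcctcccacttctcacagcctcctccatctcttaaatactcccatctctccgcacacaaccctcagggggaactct
Fmo5: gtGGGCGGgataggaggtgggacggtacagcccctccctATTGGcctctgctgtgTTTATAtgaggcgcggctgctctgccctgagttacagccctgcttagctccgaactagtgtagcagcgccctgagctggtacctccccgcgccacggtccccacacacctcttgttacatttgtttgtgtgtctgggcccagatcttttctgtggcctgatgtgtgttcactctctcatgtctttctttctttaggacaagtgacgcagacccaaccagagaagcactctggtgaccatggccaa
The motifs were the TATA box as TATAAA, the CCAAT box, the GC box as GGGCGG, the core GCGTG of the aryl hydrocarbon receptor element, the core TGACNNNGC of the antioxidant response element, TGTTTAC of FOXA factors, the HNF1 site and the estrogen response element, each on both strands. Fmo5 held a match to the GC box, to the CCAAT box and to the TATA box, found in 35.7%, 37.4% and 13.6% of 32841 promoter windows, with no overlap between them. These matches began at -248, -211 and -195 from the listed start. In the Fmo5 window that start directly follows a run of c and t ending in ag, as at the end of an intron. Whether it is a true start of transcription was not tested, so distances and base content hold for the listed start only. The CCAAT and TATA matches lay on the opposite strand. Whether any match acts in the promoter was not tested. The Fmo2 window held none of the 8, its second listed start had 1 TGTTTAC match (3.65% of windows), and the Fmo4 window had 1 CCAAT match. GC content was 56.0% for Fmo5, 41.3% for Fmo2 at the window shown and 42.7% for Fmo4, against a median of 52.7%. Fmo5 held 10 CpG, Fmo2 5 and Fmo4 4, against a median of 7. The windows shown shared no searched motif, which says only that these letters are not in them.

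In the table, Fmo4, Fmo1 and Fmo2 follow each other on the minus strand of chromosome 1, with 15.6 kb between Fmo4 and Fmo1 and 7.71 kb between Fmo1 and Fmo2. Prrc2c, the neighbour 52.6 kb on the far side of Fmo4, stood at 22.2 ± 10.6 CPM on the Longevity diet and 28.5 ± 7.58 CPM on the standard diet (SD, n = 5 each). Fmo5 lies apart on chromosome 3, between the chromatin remodeller gene Chd1l, 18.6 kb away and transcribed in the opposite direction, and Prkab2, a subunit gene of the energy sensor AMPK, 2.91 kb away. Chd1l stood at 8.53 ± 2.42 CPM on the Longevity diet and 7.11 ± 2.00 CPM on the standard diet, and Prkab2 at 1.86 ± 0.684 and 2.62 ± 0.653 CPM in the same order (SD, n = 5 each). Among 13156 genes Chd1l ranked 5th by its r with Fmo5 (0.83 over the 10 mice, as a description), and it was singled out after its values were seen. After each diet mean was subtracted Chd1l ranked 27th (r 0.81, Spearman rho 0.47). The r of Prkab2 and Prrc2c is not given.

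The genes whose log2 levels over the 10 mice were most like each member, by Pearson r and given as a description, were different for every member. They were Fut8 (0.97), Dtx4 (0.97) and Tln2 (0.96) for Fmo1, and Dgkh (0.90), Nsun4 (0.85) and Plcb1 (0.84) for Fmo2. Leaving out predicted genes, by names starting with Gm or ending in Rik, they were Nol4l (0.94), Tpd52 (0.88) and Ythdc2 (0.86) for Fmo4, and Rassf1 (0.88), Adamts15 (0.88) and Hmga1b (0.86) for Fmo5. After each diet mean was subtracted the closest were Slc30a10 (0.99), Zfp422 (0.97) and Cnot4 (0.97) for Fmo1, Junb (0.91), Thbs2 (0.90) and Tspan3 (0.89) for Fmo2, Nol4l (0.96), Zfp74 (0.94) and Tpd52 (0.93) for Fmo4, and Hnrnpa1 (0.92), Adamts15 (0.90) and Fbxo5 (0.89) for Fmo5. With 10 mice and 13156 genes such values are the extreme of many. The names left out held 1 gene ranked 2nd for Fmo4 over the 10 mice and 1 ranked 1st for Fmo5 after the diet means were subtracted.

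Flavin-containing monooxygenases draw on NADPH. Of 12 tested genes of NADPH supply 0 rose and 0 fell, where 1.89% of all tested genes passed, with a median log2 difference of 0.0047 beside -0.11 over all tested genes. The pentose phosphate enzyme Tkt stood at 147 ± 21.5 CPM on the Longevity diet and 99.7 ± 19.2 CPM on the standard diet (limma adjusted p = 0.121), and G6pdx, which opens that pathway, at 4.06 ± 1.90 and 5.49 ± 1.20 CPM in the same order (adjusted p = 0.436). The folate enzyme Mthfd1 had a log2 difference of -0.35 (adjusted p = 0.368) and the NAD kinase Nadk one of 0.24 (adjusted p = 0.442).

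Among 12 tested genes of redox partners, heme and biliverdin enzymes and epoxide hydrolases, most but not all of them microsomal, 1 rose and 0 fell, with a median log2 difference of -0.03. The gene that rose was Ephx1, the microsomal epoxide hydrolase, at 449 ± 79.2 CPM on the Longevity diet and 227 ± 44.5 CPM on the standard diet (log2 change 0.99, SE 0.18, limma adjusted p = 0.0164). Por, the reductase that passes electrons from NADPH to cytochromes P450 but is not needed by flavin-containing monooxygenases, stood at 744 ± 217 and 344 ± 105 CPM in the same order (log2 difference 1.11, adjusted p = 0.0630). The log2 difference was 0.71 for the biliverdin reductase Blvrb (adjusted p = 0.147) and 0.47 for the soluble epoxide hydrolase Ephx2 (adjusted p = 0.152).

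Some genes passed the threshold in the lists of choline, betaine and methylamine metabolism and of cysteine, hypotaurine and taurine metabolism. The lists were chosen with earlier results of these data known. Their counts beside the 1.89% of all tested genes that passed are a description only, and no link to substrates of the family was tested. Of 17 tested genes of choline, betaine and methylamine metabolism 2 fell and 0 rose (median -0.15). Bhmt, which uses betaine to remethylate homocysteine, fell to 627 ± 280 CPM on the Longevity diet, against 1476 ± 147 CPM on the standard diet (limma adjusted p = 0.0438), and the choline transporter gene Slc44a1 to 34.9 ± 6.35 CPM, against 60.3 ± 10.6 CPM (adjusted p = 0.0473). The log2 difference was -1.48 for the choline kinase Chka (adjusted p = 0.0721) and -0.82 for the glycine methyltransferase Gnmt (adjusted p = 0.174). Of 15 tested genes of cysteine, hypotaurine and taurine metabolism 1 rose and 2 fell (median -0.20). Slc6a13, a transporter of taurine and GABA at the hepatocyte membrane, rose to 291 ± 21.8 CPM on the Longevity diet, against 127 ± 23.7 CPM on the standard diet (adjusted p = 0.00421). The aminotransferase Got1 fell to 112 ± 33.2 CPM, against 240 ± 64.3 CPM (adjusted p = 0.0290), and the sulfide-oxidising enzyme gene Ethe1 to 23.4 ± 5.24 CPM, against 54.2 ± 20.7 CPM (adjusted p = 0.0376). Cth, which makes cysteine from cystathionine, had a log2 difference of -0.92 (adjusted p = 0.0718). The calls of Slc44a1, Bhmt, Ethe1, Got1 and Ephx1 were lost in 11, 10, 9, 6 and 3 of 19 alternative settings. Calls were gained in 4 settings for Por, in 2 each for Tkt, Chka and Gnmt and in 1 for Cth.

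Of 24 tested genes of regulators of drug-oxidising enzymes, all transcription factors apart from Keap1, 0 rose and 1 fell (median -0.03). The estrogen receptor gene Esr1 fell to 14.6 ± 1.61 CPM on the Longevity diet, against 35.9 ± 6.12 CPM on the standard diet (log2 change -1.28, SE 0.18, limma adjusted p = 0.00442). The pregnane X receptor gene Nr1i2 stood at 82.0 ± 14.5 CPM on the Longevity diet and 50.4 ± 6.85 CPM on the standard diet (adjusted p = 0.0630), and Arnt, partner of the aryl hydrocarbon receptor, at 14.7 ± 5.88 and 20.6 ± 2.77 CPM in the same order (adjusted p = 0.314). Nr1i2 passed in 3 of 19 alternative settings.

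**Figure D5:**
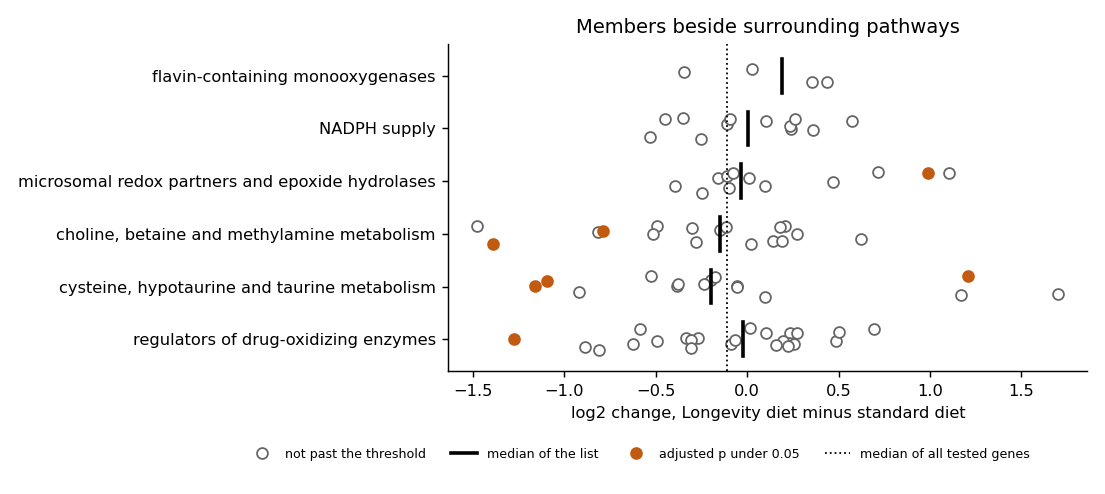
Log2 difference, Longevity diet minus standard diet, of every tested gene (points) of the 4 flavin-containing monooxygenases and of 5 surrounding lists, filled where the limma adjusted p was under 0.05, with each list's median (bar) and the median of all tested genes at -0.11 (dotted line). All 4 members are open points. In the other lists, of 12, 12, 17, 15 and 24 tested genes, 7 genes are filled. Of all tested genes 1.89% passed.

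The livers carried hepatocyte mRNA throughout, with 168569 to 223152 CPM summed over 13 hepatocyte markers on the Longevity diet and 123113 to 172171 CPM on the standard diet, a sum that the most abundant genes dominate. Of the 13 markers 9 had negative log2 differences (median -0.10) and 1 fell, and their mean log2 level was 12.01 to 12.28 on the Longevity diet and 12.16 to 12.56 on the standard diet. Marker lists of several other cell types had median log2 differences below the -0.11 of all tested genes. In a bulk sample fewer cells of a type and less RNA per cell cannot be told apart. Stellate cell and fibroblast markers summed to 324 to 435 CPM on the Longevity diet and 456 to 651 CPM on the standard diet (16 genes, 1 fell, median -0.76), and endothelial markers to 229 to 527 CPM and 510 to 684 CPM in the same order (16 genes, 0 passed, median -0.67). Sums for Kupffer cells and macrophages were 331 to 1085 CPM on the Longevity diet and 595 to 1204 CPM on the standard diet (15 genes, 0 passed), and for neutrophils 2.55 to 7.96 CPM and 6.53 to 127 CPM (7 tested genes, 1 fell). B and plasma cell markers (10 tested), T and NK cell markers (9), cholangiocyte markers (5) and smooth muscle and mesothelial markers (4) had 0 genes past the threshold, with medians of -1.27, -0.36, -0.06 and 0.01. Every listed marker found in the table was above 0 in at least 1 mouse. Their part in the values of the 4 members was not tested.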

How the data were processed

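Poly-A selected liver RNA of 10 mice was sequenced, per the labels' protocols. The deposited table holds CPM, summing to 1e+06 over its genes in each mouse once the 0.0001 that the authors added to every value was subtracted. STAR, Partek and mm39 are named in the submitters' processing notes without versions; quantifier, annotation release, filter and strandedness per sample are not given in the sources used here. The step between low values gave the estimated depths, but only 84.6% to 88.0% of the values below 100 reads came within 0.1 of a whole number, short of the 95% wanted for a count test. Gene ends are given as 1 below the table's stop, whose difference from the start is the table's length.

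Diets were compared on log2(CPM + 0.1) where the mean reached 1 CPM, with limma 3.58.1 (trend, robust, statmod 1.5.0, R 4.3.3) and diet as the only term. The fit was also run on simulated data, with changes larger than those of the members. That run does not show whether differences as small as theirs can be found. Exact permutation tests used SciPy 1.17.1, and coding sequences were aligned with Biopython 1.88. Correlations used 100000 permutations. The members and lists were chosen with earlier results of these data known. Named genes were the members, up to 4 per pathway list with the smallest p, the 3 closest in Pearson r apart from predicted genes, and neighbours. Another family gene in the table and 1 gene that the rule named are not reported here. Alternatives were other pseudocounts (0.01 and 1 CPM), filters (none and 5 CPM), scalings, weights, a covariate and leaving out each mouse. Adjusted p-values over the members alone were not made. Fmo1 had no entry among the promoter windows used here.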

Additional observations from a re-analysis of the deposited data

How the results depend on the processing

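No paired analysis was possible because no mouse number occurs on both diets. None of the 4 members passed the threshold in any of 19 alternative settings (limma adjusted p 0.187 to 0.480 for Fmo1, 0.178 to 0.684 for Fmo2, 0.484 to 0.994 for Fmo4 and 0.214 to 0.71 for Fmo5). The direction held for Fmo1 (-0.41 to -0.24), Fmo2 (0.24 to 0.70) and Fmo5 (0.15 to 0.49). Fmo4 turned to -0.0073 with the leading digit as a covariate, to -0.024 without LD_442, to -0.077 without LD_513 and to -0.10 without SD_500, in a range of -0.10 to 0.10 when each mouse was left out. Leaving out each mouse moved the log2 ratio of Fmo5 to Fmo2 between -0.20 and 0.05 (0.052 without SD_403), of Fmo2 to Fmo1 between 0.59 and 0.91 and of Fmo5 to Fmo1 between 0.53 and 0.83. The number of genes changed was 249 (87 higher, 162 lower). It was 805 (329 and 476) with library weights and 98 (28 and 70) with the leading digit as a covariate. Omitting single mice gave 87 to 380 (26 to 152 higher, 57 to 228 lower), with 380 without LD_405, 87 without LD_406, 106 without LD_515, 96 without SD_403, 107 without SD_500, 148 without SD_501 and 163 without SD_646, and 57 higher without LD_513. Median-of-ratios scaling and quantile normalization each gave 151 genes higher and moved the median of all genes by 0.102 and 0.114. The causes were not tested. The estimated depth was 24.7 to 45.7 M reads per library, from the step that fell short of the whole-number check. At these depths the largest counting error of a member was 4.69%.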

Other observations

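Genes known for higher expression in the liver of one sex changed in both directions on the Longevity diet. Of 22 tested genes on a list of female-biased mouse liver genes 1 rose and 4 fell (median log2 difference -0.24, beside -0.11 over all tested genes). Over all tested genes 1.89% passed in either direction. Cyp2a4, a steroid hydroxylase gene, rose to 2937 ± 460 CPM on the Longevity diet, against 1321 ± 338 CPM on the standard diet (limma adjusted p = 0.0117). Whether reads of Cyp2a4 are shared with paralogs was not checked. Cyp2b10, a cytochrome gene that the receptor CAR induces, fell to 10.1 ± 5.66 CPM, against 51.7 ± 7.48 CPM (adjusted p = 0.00283). Cyp3a41b fell to 83.3 ± 55.7 CPM, against 498 ± 203 CPM (adjusted p = 0.0157), although reads can be shared with its close paralog Cyp3a41a, which also fell. Sult1e1, the estrogen sulfotransferase gene, fell to 0.314 ± 0.255 CPM, against 30.2 ± 37.7 CPM (adjusted p = 0.00283), a fold that depends on the pseudocount at levels this low.

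Of 15 tested genes on a list of male-biased mouse liver genes 2 rose and 1 fell (median -0.02), beside 1.89% of all tested genes. Cyp2d9, a testosterone hydroxylase gene, rose to 29.5 ± 14.7 CPM on the Longevity diet, against 6.87 ± 3.35 CPM on the standard diet (limma adjusted p = 0.0259), and the glutathione transferase gene Gstp1 rose to 425 ± 98.0 CPM, against 212 ± 70.4 CPM (adjusted p = 0.0449). Selenbp2 fell to 5.63 ± 3.43 CPM, against 31.8 ± 19.2 CPM (adjusted p = 0.0309). The oxysterol hydroxylase gene Cyp7b1 had a log2 difference of -0.52 (adjusted p = 0.172) and passed in 1 of 19 alternative settings. The calls of Gstp1, Selenbp2, Cyp2d9, Cyp3a41b and Cyp2a4 were lost in 12, 10, 5, 1 and 1 of 19 alternative settings. All 10 mice were female, so these genes were not compared between sexes.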
